A study of Bos taurus with 6 samples.

Results

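This account covers 7 genes that make and restrain plasmin in the follicle: the plasminogen activators PLAT and PLAU, the receptor PLAUR, and the serpin inhibitors SERPINE2, SERPINA5, SERPINB2 and SERPINF2. They were taken as every probe of the bovine oligonucleotide array whose platform annotation carries one of these symbols or an unambiguous synonym. That gave 8 probes for 7 of 15216 named genes, with a pair of probes for SERPINB2 and 1 probe for each of the others. All 8 probes passed the background filter, so all 7 genes were tested among 9000 genes and 20788 probes.

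The cells were granulosa cells from the dominant preovulatory follicle. They came from 3 aged Hereford cows, labelled multiparous, and from 3 young ones, labelled heifers (nulliparous), and the labels give no age in years. All 6 animals were synchronised with prostaglandin F2 alpha and injected with 25 mg of luteinizing hormone (LH) on day 6. Follicles were taken on day 7, which is 24 h after LH. Every array set an aged cow against a young one: 13 (aged) against 11 (young), 110 against 7, and 126 against 184, each hybridised again after exchange of the dyes (Cy3 and Cy5), for 6 arrays in all. Each sample is labelled as aspirated, while the protocol also names removal of the ovary, and cells were either snap frozen or kept in a preservative, with no record of which. The protocol calls the animals mothers and daughters without saying which arrays join a mother with her daughter. RNA was amplified in 2 rounds before labelling. No untreated cow was included, so all values describe follicles after LH.

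Plasmin is a broad protease that cuts fibrin and matrix proteins and activates matrix metalloproteinases. It is made from plasminogen by tissue-type plasminogen activator (PLAT) and by urokinase (PLAU), and urokinase can be held at the cell surface by its receptor PLAUR. Serpins block these enzymes by forming a covalent complex with them: SERPINE2 (protease nexin 1) acts on PLAU, PLAT, thrombin and plasmin, SERPINA5 (protein C inhibitor) on activated protein C and both activators, SERPINB2 (plasminogen activator inhibitor 2) on the activators, and SERPINF2 (antiplasmin) on plasmin itself. Granulosa cells are a known source of plasminogen activators as ovulation approaches, and LH is known to raise PLAT in granulosa cells of several species, cattle included.

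Between 49.4% and 71.8% of probes per channel lay above the background threshold, and the negative controls read 199.8 to 400.5 units on average. The 2 dye-swapped arrays of a pair correlated at r = 0.85, 0.84 and 0.61 across 20595 probes, which are not independent, for the pairs of aged cows 13, 110 and 126. The ratios of different pairs correlated at 0.49 (13 and 110), -0.15 (13 and 126) and 0.03 (110 and 126). The names of the scans carry a number, taken here as that of the slide, though no label says so. It was the same for the arrays of aged cows 13 and 110 and differed on each array of cow 126. Of 17 granulosa markers, 10 were kept. INHA, an inhibin subunit, was at 14.87 to 15.16 in 5 cows, while FOXL2 was above background in 1 of 12 channels. Markers of other cells were present too: 12 of 19 epithelial and 12 of 18 leukocyte markers on the array were kept.

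None of the 7 genes passed the test for a difference between aged and young cows. In the limma fit with Benjamini-Hochberg adjustment over all 20788 probes, 0 members and 0 probes had an adjusted p under 0.05 (0% of genes tested), and the smallest adjusted p of any probe was 0.463. An unadjusted p below 0.05 was reached by 10.4% of probes, 6.37% on the higher and 4.07% on the lower side in aged cows. Higher probes made up 61% of these, against 74.1% with median centring and 48.1% with the authors' values. Among the 15137 probes above background in both channels the share was 49%, so it also depended on the filter. The shares of all tested genes set beside the members were counted with the main filter and settings. Of the 9000 genes, 11.5% reached that unadjusted level, 7.56% higher and 3.99% lower, and of the 7 members 1 did, SERPINA5, on the lower side. In 3 of the 7 members the ratio had the same direction in all 3 pairs, PLAT higher and SERPINA5 and SERPINF2 lower in aged cows, against 38.7% of all tested genes. The levels of the 3 aged cows stood apart from those of the 3 young cows for 0 of 7 members, against 18.2% of all tested genes. The median log2 ratio was 0.08 over the members and 0.06 over all tested genes.

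**Figure D1:**
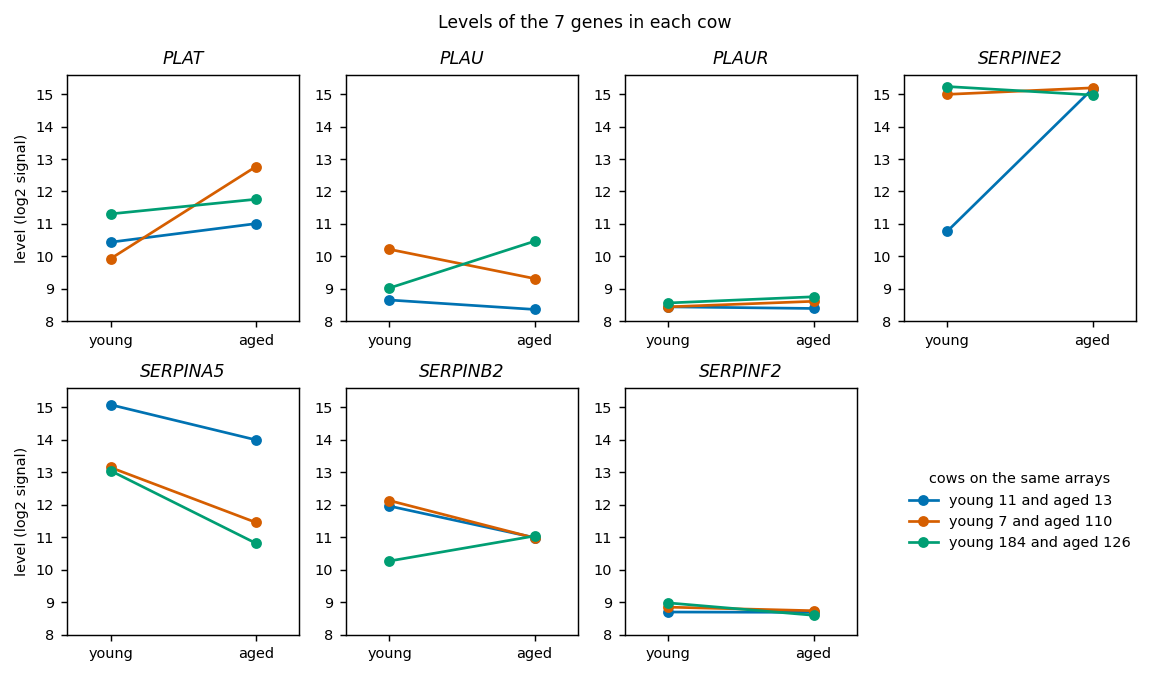
Levels of the 7 genes in each cow, as normalised log2 signal (vertical axis), with young cows on the left and aged cows on the right; a line joins the 2 cows of a pair. SERPINA5 slopes downward to the aged cow in all 3 pairs, PLAT upward in all 3, SERPINE2 departs from about 15 in young cow 11 alone, and PLAUR and SERPINF2 lie below 9 throughout.

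PLAT, the tissue-type activator, read higher in the aged cow of every pair, most in 1 of them. Its levels were 11.01, 12.76 and 11.76 in aged cows 13, 110 and 126, and 10.44, 9.93 and 11.31 in young cows 11, 7 and 184. Levels are log2 signals of a channel after normalisation, averaged over both dyes. Aged cow 110 was the highest and young cow 7, on the same arrays, the lowest. The groups overlapped, since young cow 184 lay above aged cow 13. The log2 ratios of aged over young were 0.56, 2.83 and 0.45 in the 3 pairs, or 1.48-fold, 7.11-fold and 1.36-fold. All 6 arrays gave a ratio above 0, from 0.41 to 3.17, as they did for 12.1% of all tested genes. In the authors' deposited log2 values the array with aged cow 13 in Cy3 gave -0.27 and the other 5 were above 0. The mean was 1.28 ± 1.34 (SD, n = 3 pairs) with a 95% confidence interval of -0.74 to 3.30, so the mean was smaller than the spread between pairs (limma adjusted p = 0.572, unadjusted 0.137). With 3 pairs, the exact sign-flip test (two-sided) gave its smallest possible p, 0.25. Without the pair of aged cow 110 the mean was 0.51.

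The signal of PLAT was above background in every channel, by least in young cow 7, at 1.99 (Cy3) and 2.73 (Cy5) times the threshold. It read 7905 and 8079 units in aged cow 110 in Cy5 and Cy3, against 870 and 1045 in young cow 7 in Cy3 and Cy5, where the background threshold was 437.9 and 382.5. The dye-swapped arrays of that pair gave 3.17 and 2.49.

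The summed signal of granulosa genes that answer to LH was highest in the same cow as PLAT. It was low in the same young cows, though not every gene of that list was. The summed signal of its 11 genes on the array (9 of them kept, none without a channel above background) was 48654, 124959 and 63506 units in aged cows 13, 110 and 126, and 9590, 12755 and 60138 in young cows 11, 7 and 184. Such sums include the non-specific signal of each probe. Aged cow 110 was highest in both measures. Young cows 11 and 7 were below all others in both, with cow 11 the lowest in the sum and cow 7 the lowest in PLAT. Levels of TNFAIP6, whose protein cross-links hyaluronan in the expanding cumulus, were 8.90 and 9.19 in young cows 11 and 7 and 14.99 to 15.09 in the other 4 cows. PTGS2, the inducible prostaglandin synthase, was at 11.96 in aged cow 110 and at 8.23 to 9.73 elsewhere. The sum is set by its bright probes, TNFAIP6, PTX3 and RGS2 among them, and other genes of the list ran differently. BTC was at 11.44 and 11.33 in young cows 11 and 7 and at 8.45 to 8.71 elsewhere, AREG (9.42) and PGR (10.61) were highest in young cow 11, and EGR1 (10.48) in young cow 7. The part of these differences between cows in the PLAT ratios was not tested. In samples of whole aspirated cells, fewer cells of a type and less RNA per cell cannot be told apart.

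**Figure D2:**
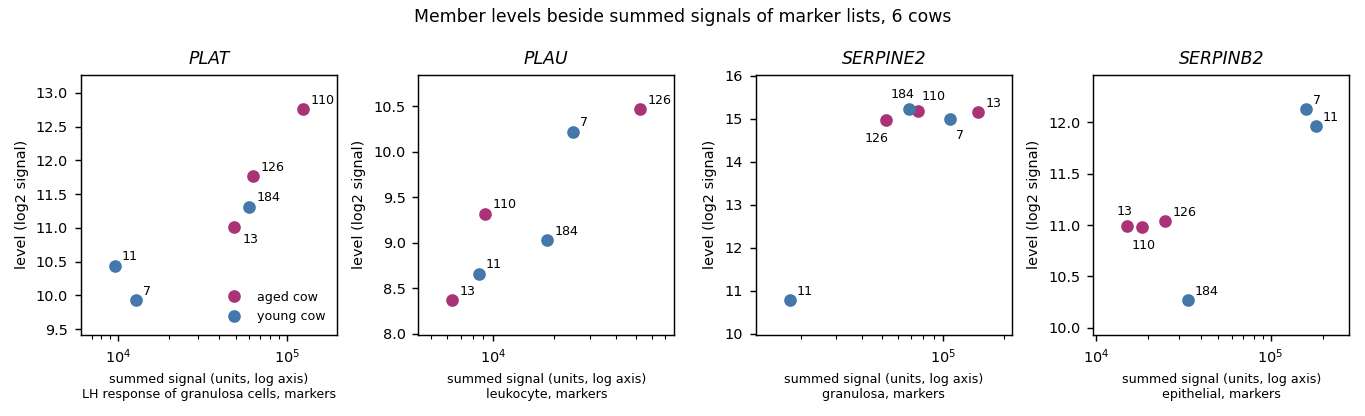
Level of 4 member genes (vertical axis, log2 signal) beside the summed signal of a marker list (horizontal log axis, units) in the 6 cows, each labelled by its number. PLAT and the LH response list were both highest in aged cow 110, PLAU and the leukocyte list in aged cow 126, SERPINE2 and the granulosa list were lowest in young cow 11, and SERPINB2 and the epithelial list were highest in young cows 11 and 7.

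PLAU, urokinase, had ratios of both directions. Its levels were 8.37, 9.32 and 10.47 in aged cows 13, 110 and 126, and 8.66, 10.22 and 9.03 in young cows 11, 7 and 184. The highest were aged cow 126 and young cow 7, and the groups overlapped throughout. The pair ratios were -0.30, -0.89 and 1.44, so that PLAU read 2.71-fold higher in aged cow 126 and 1.86-fold lower in aged cow 110 than in the young cow of the same arrays. The mean of 0.08 ± 1.21 (SD, n = 3) had an interval of -1.74 to 1.90 and a limma adjusted p of 0.954. Without the pair of aged cow 126 the mean was -0.60. In aged cow 13 the probe stood at the threshold, at 249 units against 237.2 in Cy5 and 269 against 286.6 in Cy3, so its ratio in that pair rests on values near background.

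Leukocyte markers differed between the cows as well, in more than one pattern. The summed signal of their 18 genes on the array was 6340, 9205 and 52821 units in aged cows 13, 110 and 126, and 8540, 24644 and 18443 in young cows 11, 7 and 184. Of these genes, 12 were kept and ITGAM was above background in no channel. Aged cow 126 was the highest in both measures. Young cow 7 came next in the sum, with S100A8 at 13.09 and S100A9 at 11.52, and CD3E was at 10.40 there. SPI1, LYZ, AIF1, CORO1A and CD163 were higher in young cow 184 than in young cow 7, the reverse of PLAU; LYZ was at 11.85 and 9.01. TYROBP, a signalling adaptor of myeloid and natural killer cells, reached 13.87 in aged cow 126, while the other cows lay at 8.25 to 10.61. PTPRC, the common leukocyte antigen, was at 12.03 in aged cow 126, 12.55 in young cow 7 and 12.32 in young cow 184, and at 9.88 to 11.32 in the other 3 cows. The part of leukocyte RNA in the PLAU signal was not tested.

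PLAUR, the urokinase receptor, lay close to background in all cows. Its levels were 8.40, 8.62 and 8.76 in aged cows 13, 110 and 126, and 8.45, 8.45 and 8.57 in young cows 11, 7 and 184. All lay within 0.35 on the log2 scale, and the groups overlapped. Spot signals were 1.01 to 1.66 times the threshold. The pair ratios of -0.04, 0.17 and 0.18 gave a mean of 0.10 ± 0.13 (SD, n = 3), an interval of -0.14 to 0.35 and a limma adjusted p of 0.666. A probe this dim could hardly show a difference.

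SERPINE2, the serpin that granulosa cells are known to secrete, read alike in 5 cows and far lower in 1. Its levels were 15.16, 15.19 and 14.97 in aged cows 13, 110 and 126, and 10.78, 14.99 and 15.23 in young cows 11, 7 and 184. Young cow 11 alone was low, and the other 5 cows lay between 14.97 and 15.23 with both ages intermixed. The ratios were therefore 4.38, 0.21 and -0.27, with a mean of 1.44 ± 2.56 (SD, n = 3), an interval of -2.40 to 5.28 and a limma adjusted p of 0.689. Without the pair of aged cow 13 the mean was -0.03.

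The low value of SERPINE2 in young cow 11 differed between its 2 arrays. That cow read 373 units in Cy3, near the threshold of 318.6, and 8758 units in Cy5 on the dye-swapped array, while aged cow 13 read 41730 and 39403 units on the same arrays. The resulting ratios were 6.65 and 2.11. Their gap of 4.54 compares with a median gap of 0.17 over all kept probes of that pair and was at percentile 99.9. SERPINE2 read lower in young cow 11 than in aged cow 13 on both arrays, but the size of the difference was not settled. In the other 5 cows the spot means were 23222 to 41730 units. In aged cow 13 the median pixel of the spot in Cy5 read 65535 units, the highest value in the files. The files carry no flag for saturation, so how far these bright cows differ is not settled.

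Some other granulosa genes, but not all of the list, were low in the same cow. The summed signal of the 17 granulosa markers was 148773, 75517 and 52507 units in aged cows 13, 110 and 126, and 17675, 108489 and 67853 in young cows 11, 7 and 184, lowest in young cow 11. INHA read 236 units in Cy3 and 6663 in Cy5 in that cow, a dye difference like that of SERPINE2, and 27563 units or more in every channel of the other cows. The transcription factor gene GATA4 was at 8.80 in young cow 11 and 11.32 to 13.33 elsewhere, with a ratio of 4.53 on both dye-swapped arrays. GJA1, the main connexin of granulosa cells, was at 8.33 there and 10.51 to 14.92 elsewhere. NR5A2 ran differently, at 13.32 in young cow 11 and 11.62 to 12.78 in the aged cows. CYP19A1, which was not kept, was at 8.44 in young cow 11, much as in aged cow 126 (8.43) and young cow 184 (8.36). Epithelial markers were high in young cow 11: the summed signal of 19 genes was 180876 units there and 158672 in young cow 7, against 33584 in young cow 184 and 15156 to 24968 in the 3 aged cows. The part of the cell mixture in the SERPINE2 ratio was not tested, and young cow 7 had high epithelial markers with SERPINE2 at 14.99.

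**Figure D3:**
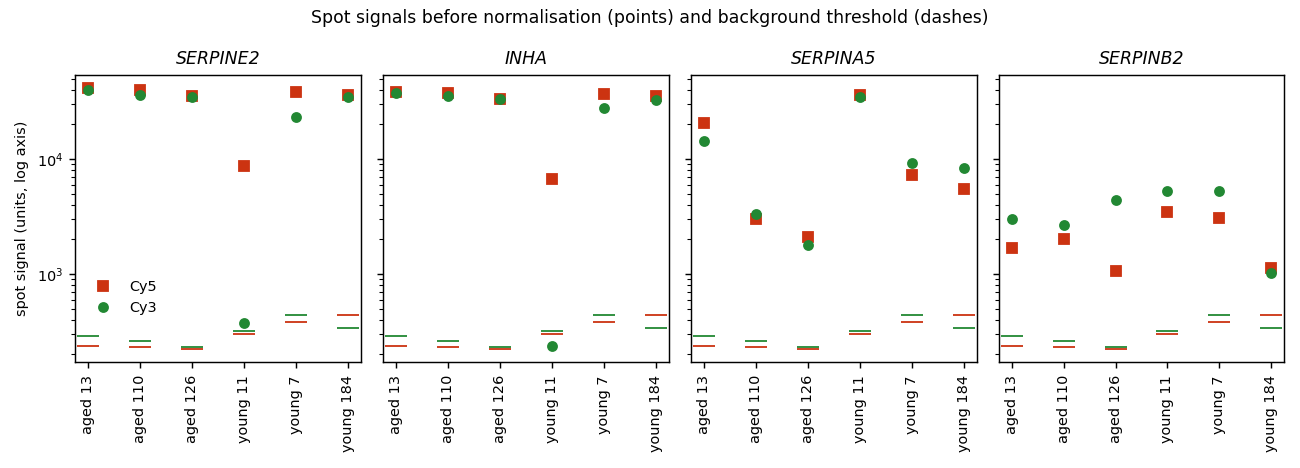
Spot signals before normalisation (vertical log axis, units) in each cow, in Cy5 (squares) and Cy3 (circles), with the background threshold of each channel as a dash. SERPINE2 and INHA drop in young cow 11, to near the threshold in Cy3 and to 8758 and 6663 units in Cy5; the dyes lie closer together for SERPINA5, and for SERPINB2 Cy3 reads above Cy5 in all cows except young cow 184.

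SERPINA5, protein C inhibitor, read lower in the aged cow of every pair and had the smallest p of the 7 genes, without passing the threshold. Its levels were 14.00, 11.46 and 10.82 in aged cows 13, 110 and 126, and 15.08, 13.15 and 13.05 in young cows 11, 7 and 184. Both cows of the first pair were the highest of their age group, and aged cow 13 lay above young cows 7 and 184, so the groups overlapped although every pair had the same direction. The log2 ratios were -1.08, -1.69 and -2.23, which is 2.12-fold, 3.23-fold and 4.68-fold lower in the aged cow. All 6 arrays were below 0, from -2.25 to -0.80, where 6.3% of genes were lower on all 6 arrays. The mean of -1.67 ± 0.57 (SD, n = 3) was about 3.18-fold lower in aged cows and exceeded the spread between pairs, with an interval of -2.54 to -0.80 that is not adjusted for the number of probes. The limma unadjusted p was 0.00891, rank 248 of 20788 probes, and the adjusted p 0.463. The exact sign-flip test gave p = 0.25, the smallest 3 pairs allow. Without the pairing, as 3 aged against 3 young cows, the limma unadjusted p was 0.171, no longer under 0.05, and the adjusted p 0.593.

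The SERPINA5 signal was far from background in all channels, at 1795 to 20607 units in aged and 5495 to 36083 units in young cows. The 2 arrays of a pair differed by 0.56, 0.23 and 0.05. The authors' deposited log2 values, averaged per pair, were -1.33, -1.81 and -2.24. Among the marker lists, only the endothelial one had pair medians below 0 in every pair (-0.02, -0.04 and -0.14, in the order 13, 110, 126), with summed signals of 3444 to 3678 units over all cows. By pair, the granulosa list had medians of 3.47, 0.00 and 0.03, the epithelial list -2.80, -2.67 and 0.06, and the leukocyte list -0.28, -0.39 and 1.22. Single markers of several lists were below 0 in every pair, as SERPINA5 and 16.2% of all tested genes were. Among them were the epithelial genes EPCAM (-6.77, -4.18 and -0.53), AGR2 (-6.83, -1.55 and -0.29), PERP (-0.94, -1.44 and -1.67) and DSP (-1.71, -2.72 and -0.07). The leukocyte gene PTPRC (-0.42, -1.22 and -0.30), the haemoglobin gene HBB (-0.81, -1.40 and -1.33) and the granulosa gene NR5A2 (-0.54, -1.33 and -1.86) were others. The part of other cells in the SERPINA5 ratios was not tested. The pairs of cows 13 and 110, whose scan names shared a number, had a mean of -1.39, and the pair of cow 126 had -2.23.

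**Figure D4:**
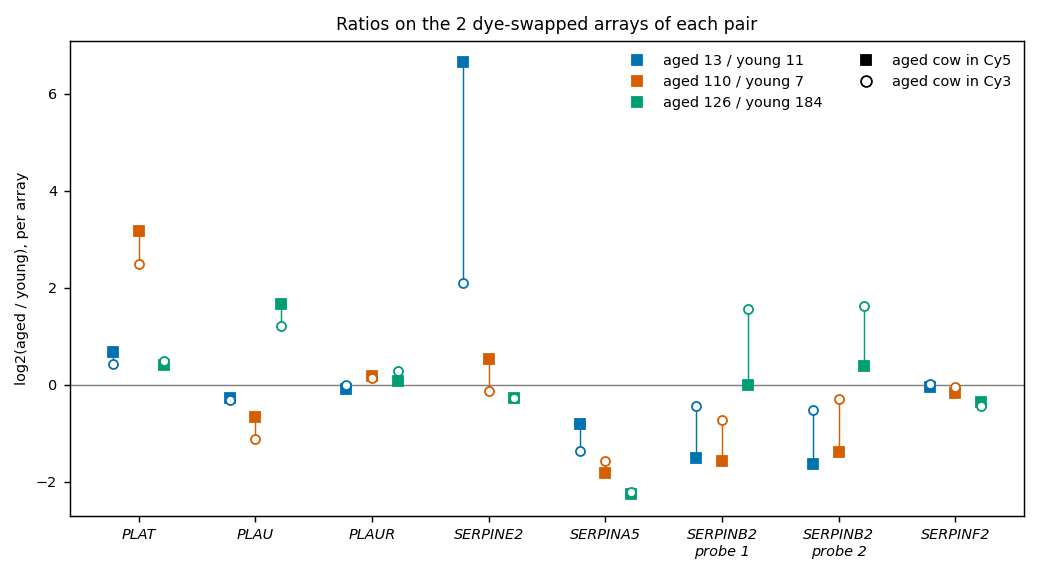
Log2 ratio of aged over young on each of the 6 arrays (vertical axis) for the 8 probes, with the aged cow in Cy5 (squares) or in Cy3 (open circles); a line joins the 2 arrays of a pair. SERPINA5 is below 0 and PLAT above 0 on all 6 arrays, SERPINE2 spans 6.65 to 2.11 in the pair of aged cow 13, and both SERPINB2 probes lie lower with the aged cow in Cy5 in every pair.

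SERPINB2, plasminogen activator inhibitor 2, had 2 probes, which gave like values. Levels of the brighter probe were 10.99, 10.98 and 11.04 in aged cows 13, 110 and 126, and 11.96, 12.13 and 10.27 in young cows 11, 7 and 184. The 3 aged cows (SD 0.03) lay between young cow 184 below and young cows 11 and 7 above. Its pair ratios were -0.97, -1.14 and 0.77, and those of the other probe -1.07, -0.84 and 1.01. The means were -0.45 ± 1.06 and -0.30 ± 1.14 (SD, n = 3), with intervals of -2.05 to 1.15 and -2.02 to 1.42 and limma adjusted p of 0.742 and 0.822. Young cows 11 and 7, in which SERPINB2 was highest, also had the highest summed epithelial signal. The other cows did not run alike. Young cow 184 had the lowest SERPINB2, but its epithelial sum (33584 units) was above those of the 3 aged cows (15156 to 24968). EPCAM, an epithelial adhesion molecule, was at 15.00 and 12.98 in them and at 8.23 to 9.78 in the other 4 cows. KRT19, an epithelial keratin, was at 14.69 and 15.38 in them and at 9.20 to 12.15 elsewhere. Not every gene of the list ran so: ELF3 was highest in young cow 184 (8.82), and PERP was higher there (14.13) than in young cow 11 (13.86). The part of epithelial RNA in the SERPINB2 signal was not tested.

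Both SERPINB2 probes carried a dye difference. With the aged cow in Cy5 the brighter probe gave -1.51, -1.56 and -0.01, and with the aged cow in Cy3 -0.44, -0.72 and 1.56. The gaps of 1.07, 0.84 and 1.57 ran the same way in all 3 pairs and lay between percentiles 96.1 and 98.3 of all kept probes. In aged cow 126 the spot read 1070 units in Cy5 and 4418 in Cy3. A constant dye effect cancels in the mean of a pair, but for the brighter probe the direction in the pair of aged cow 126 rested on the array with that cow in Cy3. The other probe gave 0.39 and 1.63 on the arrays of that pair.

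SERPINF2, the plasmin inhibitor made mainly by the liver, was dim. Its levels were 8.69, 8.74 and 8.60 in aged cows 13, 110 and 126, and 8.70, 8.85 and 8.98 in young cows 11, 7 and 184, a range of 0.39 in all. Aged cow 110 lay above young cow 11, so the groups overlapped. Ratios were -0.01, -0.10 and -0.39, with a mean of -0.17 ± 0.20 (SD, n = 3), an interval of -0.50 to 0.17 and a limma adjusted p of 0.628. Signals were 1.31 to 1.55 times the threshold.

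The 5 members that varied over the cows did so in different patterns. Likeness was measured as the root mean square distance between log2 levels of 6 cows, each gene centred on its own mean, over 8998 other tested genes. SERPINE2 lay nearest to INHA, at 0.123 where the median gene lay at 1.61, followed by the cytochrome c gene CYCS (0.312) and the glycogen-binding gene STBD1 (0.382). All 4 genes were at 14.14 or above in 5 cows, near the top of the scale, and SERPINE2 and INHA in young cow 11 rest on arrays that differed by dye, so these small distances say little beyond a low value in that cow. PLAU lay nearest to the lymphotoxin gene LTB (0.228), the T-cell receptor subunit gene CD3E (0.239) and RAP2B (0.243), a small GTPase. PLAT lay nearest to the splicing factor gene CDC5L (0.198), FBXO8 (0.217) and SUCLA2 (0.237), a subunit of succinyl-CoA ligase. SERPINB2 was closest to RGL2 (0.174), ABCA9 (0.187) and MIGA2 (0.190). SERPINA5 had no such close companion, its nearest genes being ABHD17C (0.640), SLC44A3 (0.760) and RAB26 (0.790). Among the members themselves the distances were 0.679 or more, except 0.196 between the dim genes PLAUR and SERPINF2, and the largest was 2.78 between SERPINE2 and SERPINA5.

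SERPINA5 and SERPINB2 each sit in a row of serpin genes in the RefSeq gene order (assembly ARS-UCD2.0), which was used for neighbours only. Of the serpins within 3 coding genes of SERPINA5, SERPINA12 and SERPINA3-8 had probes. Both were untested, with mean log2 ratios of -0.05 and 0.11. Next to SERPINB2, SERPINB7 and SERPINB10 were untested as well, at -0.18 and 0.10.

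Of the other genes of the pathway, none passed the test. Plasminogen itself (PLG) was above background in 0 of 12 channels, so these samples gave no measurable level of the substrate, which reaches follicular fluid mainly from blood. Of 21 genes that bind plasminogen or clear its activators, 12 were tested, 4 were higher in all 3 pairs and none lower in all (22.6% and 16.2% of all tested genes). Their median ratio was 0.11. The integrin genes ITGB5 (0.53 ± 0.40, SD, n = 3) and ITGB1 (0.14 ± 0.06) and HMGB1 (0.64 ± 0.61) had the smallest p, with limma adjusted p of 0.505, 0.526 and 0.550. ITGB1 was dim, above background in 6 of 6 aged and 0 of 6 young channels, and HMGB1 was at -0.06 in the pair of aged cow 126.

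Of 29 other serpins, 7 were tested, with a median of 0.06, 0 higher and 2 lower in all pairs (22.6% and 16.2% of all tested genes). The lower ones were SERPINB8 and SERPINA10, the latter dim and at a mean of -0.02. SERPINB8 was at -0.33 ± 0.23, SERPINH1, the collagen chaperone, at 0.58 ± 0.68, and SERPING1, the C1 inhibitor, at 0.08 ± 0.12 (SD, n = 3; limma adjusted p = 0.503, 0.600 and 0.716). SERPINH1 was above background in 6 of 6 aged and 5 of 6 young channels, so it was kept through the aged cows. Of 31 genes of coagulation and fibrin, 18 were tested, with a median of -0.02. Of these, 4 were higher and 8 lower in all pairs, against the same 22.6% and 16.2%. Most of the 8 were dim: KLKB1, F2, F2RL2, F13B, F2RL1 and VWF had mean ratios of -0.13 to -0.03 at levels of 8.36 to 8.84. The thrombin receptor F2R was at 0.63 ± 0.44, higher on 6 of 6 arrays, the protein C receptor PROCR at -0.29 ± 0.18 and the prekallikrein gene KLKB1 at -0.13 ± 0.08 (adjusted p = 0.486, 0.486 and 0.560). The other probe of F2R gave 0.20. PROCR belongs to the system of activated protein C, which SERPINA5 inhibits.

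Of 27 other serine proteases and Kunitz inhibitors, 10 were tested, with a median of 0.03. Here 1 was higher and 4 lower in all pairs, against 22.6% and 16.2% of all tested genes. Most of the 4 were dim: PRSS22, PCSK6 and TPSB2 had mean ratios of -0.14 to -0.03 at levels of 8.43 to 8.93. HTRA2, a mitochondrial protease, was at 0.67 ± 0.25, higher on 6 of 6 arrays, the membrane inhibitor SPINT2 at -1.99 ± 1.56 (-3.61, -1.87 and -0.49), lower on 6 of 6 arrays, and PRSS22 at -0.14 ± 0.07 (SD, n = 3; limma adjusted p = 0.463, 0.508 and 0.531). HTRA2 was above background in 6 of 6 aged and 5 of 6 young channels, so it was kept through the aged cows. The other SPINT2 probe gave -0.04 at a mean level of 8.60. SPINT2 was highest in young cow 11 (12.51) and young cow 7 (10.56), the cows with high epithelial markers, whose part was not tested.

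Of 20 genes for targets of plasmin and its activators in the follicle wall, 11 were tested, with a median of 0.56. By pair the median was 0.32, 0.51 and -0.56 (aged cows 13, 110 and 126), so it was not of 1 direction. The list also holds the TIMP genes, which encode metalloproteinase inhibitors, with TIMP1 (0.77) and TIMP2 (1.23) among those tested. Here 1 was higher and 2 lower in all pairs (22.6% and 16.2% of all tested genes). MMP2, a matrix metalloproteinase, was at -0.91 ± 0.40 and the basement membrane proteoglycan gene HSPG2 at -1.22 ± 0.61, both lower on 6 of 6 arrays. MMP14, the membrane-bound activator of MMP2, was at 0.48 ± 0.26, higher on 6 of 6 arrays, with 4 of 6 young channels above background. The limma adjusted p was 0.463 for each of the 3. The levels of HSPG2 were 12.71, 12.85 and 12.49 in aged cows 13, 110 and 126, and 13.26, 14.18 and 14.25 in young cows 11, 7 and 184. Every aged cow lay below every young cow, as for 6.03% of all tested genes.

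**Figure D5:**
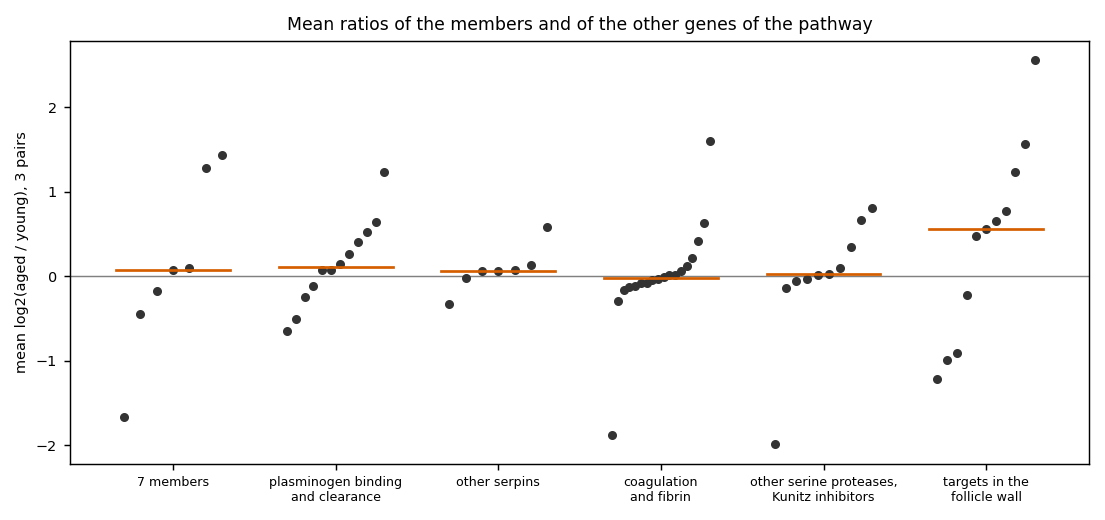
Mean log2 ratio of aged over young over the 3 pairs (vertical axis) for the 7 members and for the tested genes of the 5 other lists, each gene a point and each line the median of its list. Medians lie between -0.02 and 0.11 except for the targets in the follicle wall, at 0.56, whose genes span -1.22 to 2.56. By pair the median of that list was 0.32, 0.51 and -0.56 (aged cows 13, 110 and 126).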

How the data were processed

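RNA of 3 aged and 3 young cows was read on 6 two-colour arrays. The authors deposited scanner files holding spot intensity (means, medians, local background) for Cy3 and Cy5, not normalised, per the file headers, and a table of log2 ratios made with limma, per the submitters' processing notes. Each column of that deposited log2 table ran as aged over young once turned by dye (r of 0.819 to 0.939 with the scanner values); its background correction and filter are unknown. No column of values was left unassigned (0).

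From spot means, background was corrected by normexp (offset 50) and ratios by loess within arrays (limma 3.58.1, R 4.3.3), with control and excluded spots at weight 0. In 1 file 85 spots stood in another order, and spots were matched by position. Both arrays of a pair gave 1 mean ratio, and these 3 values were fitted with an intercept (lmFit, eBayes; two-sided; Benjamini-Hochberg over kept probes; threshold 0.05). A probe was kept where it exceeded the mean + 2 SD of the 153 negative controls in 1 age group on all arrays, which kept 20788 of 43794 probes. A negative control spot of 1427 units that the image software had excluded was left out. A gene is represented by its probe of highest mean signal. Levels are channel signals after loess and Aquantile normalisation and are set side by side within a probe. The fit was also run on simulated pair values, drawn independently for each probe. These did not model dye gaps or closeness to background, and no result rests on them.

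Of 15229 symbols in the platform annotation, which can be old, 14114 stood in the RefSeq table (ARS-UCD2.0) and 982 were updated through a synonym. Each of the 7 members was found. Named were all members, the 3 genes of each list with the smallest p, the 3 nearest genes in pattern of each member with an SD over the cows of at least 0.5, and EPCAM, KRT19, TYROBP, PTPRC, INHA, GATA4, TNFAIP6 and PTGS2; other markers were chosen after their values were seen. Members and lists were chosen with earlier results of these data known. Markers of endothelium (summed signal 3444 to 3678 units over all cows), oocyte (2248 to 2299), erythrocyte (1668 to 7522) and theca, fibroblast and smooth muscle (5890 to 18525) were also summed. The cows are separate animals. The pairing comes from the shared arrays; deviations of paired cows from their age means correlated at 0.04, 0.00 and -0.04 across probes.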

Additional observations from a re-analysis of the deposited data

Results flagged for a closer look

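Some dim genes of the lists had ratios of opposite sign in the 2 dye orientations on every array, and the difference was not tested further. For KLKB1 the mean log2 ratio with the aged cow in Cy5 was 0.34 above that with the aged cow in Cy3. For SERPING1 it was lower, the difference being -0.36. Groups of 3 arrays are too small for a search for outlying samples.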

How the results depend on the processing

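Across 16 other settings, 2 of them chosen after seeing the data, 0 probes passed the threshold, with a smallest adjusted p between 0.164 and 0.987; without the pairing (no replicate block) the count was 0 as well. SERPINA5 stayed lower in aged cows, at -1.96 to -1.39, with adjusted p of 0.285 to 0.987, and PLAT higher, at 0.51 to 1.70, with 0.368 to 0.987. Both kept their direction in all 17 alternatives computed for a gene, which include the mean over its kept probes, as did PLAUR and SERPINF2. Of 134 comparisons for the 8 member probes, 9 changed sign. PLAU turned with no background correction (-0.04), spot medians (-0.18), the authors' values (-0.16) and the aged cow in Cy3 only (-0.07), and was -0.60 to 0.57 with 1 pair left out. The SERPINB2 probes turned to 0.13 and 0.27 with the aged cow in Cy3 only, and with 1 pair left out were -1.06 to -0.10 and -0.96 to 0.08; the first of these is the brighter probe without the pair of cow 126. Its unadjusted p by limma was then 0.00683 and its adjusted p 0.251. SERPINE2 was -0.03 to 2.29 with 1 pair left out. The cause was not tested, other than the pair or dye that each such setting removes. Of 221 comparisons for the 15 named list genes 3 changed sign: KLKB1 (0.04) and SERPING1 (-0.10) with the aged cow in Cy5 only, and PRSS22 (0.05) with the aged cow in Cy3 only. List counts at an unadjusted p under 0.05 moved in 31 of 110 comparisons. PLAU could not be tested with both channels above background. The slide, as taken from the scan names, could not be fitted as a random block over pair means. With the excluded negative control counted in, 16242 probes were kept and SERPINA5 had an adjusted p of 0.469. Closeness to background limits PLAUR, SERPINF2 and, in cow 13, PLAU; 3 pairs limit all.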

Other observations

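Some matrix and coagulation genes, chosen after their values were seen, differed widely between pairs without passing the test (limma; 3 pairs, in the order of aged cows 13, 110, 126). FN1, fibronectin, gave -4.62, -0.47 and 2.10 (adjusted p = 0.804), and LAMA1, a laminin chain of the follicular basement membrane, 5.77, 2.48 and -0.56 (adjusted p = 0.609). LAMA1 was above background in 6 of 6 aged and 5 of 6 young channels, so it too was kept through the aged cows. TFPI2, a Kunitz inhibitor that blocks plasmin, was at -4.29, -1.15 and -0.20, lower on 6 of 6 arrays (adjusted p = 0.591 by limma). Its level was 13.35 in young cow 11 and 9.06 to 10.87 in the other cows. The anticoagulant cofactor gene PROS1 was at 2.75, 2.80 and -0.75 (adjusted p = 0.615). ENO1, a glycolytic enzyme that also binds plasminogen, was at 3.12, 0.58 and 0.00 (adjusted p = 0.631), and the plasminogen receptor subunits ANXA2 and S100A10 at -1.95, -1.10 and 1.09 and at -2.29, 0.80 and -0.04.

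The gap between dye-swapped arrays that SERPINE2 showed in the pair of aged cow 13 was shared by few probes. There 42 of 20788 kept probes differed by over 4 on the log2 scale, and the ratio was larger with the aged cow in Cy5 for 38 of them. Of the 42, 7 are named here, chosen by this gap: SERPINE2 (6.65 and 2.11), INHA (6.83 and 2.43), INHBA (6.93 and 2.30), HNRNPU (4.87 and 0.65), CSTF1 (0.61 and -3.63), TFF3 (-2.80 and -7.26) and LTF (-2.57 and -7.30), with the aged cow in Cy5 and then in Cy3. In the pairs of aged cows 110 and 126 the counts were 32 and 42, and the ratio was larger with the aged cow in Cy5 for 25 and 35 of them. The genes of those probes are not listed here. Of the 42 probes in the pair of cow 13, 24 read over 20000 units in some channel, as did 657 of all 20788. The cause was not tested.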
